A study of Mus musculus with 20 samples.

Results

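The promoters described here belong to 769 genes whose proteins are listed in a sperm proteome and which carry no spermatogenesis or imprinting flag in the deposited annotation, out of 22480 promoters measured. Of 846 promoters with a sperm proteome entry, 56 were set aside for the spermatogenesis flag, 3 for the imprinting flag alone and 18 because their symbols begin with Rpl, Rps, Hist, Krt, Def, Gst or Sult. Methylation was measured in sperm of 8-week-old males by MBD-sequencing, in which fragments carrying methylated CG sites are captured with a methyl-binding protein domain and sequenced. In all, 4 groups of 5 males were compared, which are control and DEHP males of the strain C57BL/6J and control and DEHP males of the strain FVB/N. All were wild-type sons of mothers dosed by mouth on gestation days 9 to 19, with corn oil in the controls and with 300 mg/kg/day of the plasticizer di-(2-ethylhexyl) phthalate (DEHP) in corn oil in the others. The labels do not say whether the 5 males of a group came from different litters. DEHP and control libraries were submitted for sequencing separately, each with both strains, so that treatment and submission cannot be told apart, whereas the strains can be compared within a submission. Where 4 values of a promoter follow each other below, they are the authors' means ± SD of normalized reads over the 5 libraries of a group, in the order C57BL/6J control, then C57BL/6J DEHP, then FVB/N control, then FVB/N DEHP.

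Mature sperm hardly transcribe their genes, and the proteins found in them were made earlier, in spermatocytes and spermatids, or were taken up in the epididymis. The flagellum is moved by dynein arms on axonemal microtubules, and its energy comes from glycolysis along the fibrous sheath and from respiration in the midpiece. For several metabolic enzymes germ cells use a form of their own, often an intronless copy of the broadly expressed gene. CG-rich promoters are generally kept free of methylation in the germ line, whereas CG-poor promoters are commonly methylated but offer few sites to the capturing domain. The read number of a promoter therefore reflects both the methylation and the number of its CG sites, and each promoter is set here beside others with as many CG sites.

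Each promoter probe spanned 2200 bases, from 2000 bases upstream to 200 bases downstream of the start of the gene. The lines that follow show 200 bases from each of 8 probes, 5′ to 3′ on the strand of the gene in GRCm38, with each CG site in capitals. They are the stretch nearest to the start that holds no annotated exon. Ldhc, Csl and Gk2 are germ cell forms with more reads than their broadly expressed counterparts, and Gyk is the broadly expressed counterpart of Gk2. In Gpd1, Gm3336, Pdia4 and Chchd6 the libraries of DEHP and control males did not overlap in 1 or both strains.
Ldhc, chr7:46860964-46861163, plus strand: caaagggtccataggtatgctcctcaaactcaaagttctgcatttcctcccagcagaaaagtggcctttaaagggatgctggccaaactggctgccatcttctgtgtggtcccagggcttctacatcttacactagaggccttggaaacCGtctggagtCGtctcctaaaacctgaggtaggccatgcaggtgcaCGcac
Csl, chr10:99759659-99759858, minus strand: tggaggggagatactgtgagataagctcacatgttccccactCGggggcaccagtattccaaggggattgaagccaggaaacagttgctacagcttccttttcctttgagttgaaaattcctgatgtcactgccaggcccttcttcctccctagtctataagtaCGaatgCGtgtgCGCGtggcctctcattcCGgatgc
Gk2, chr5:97457024-97457223, minus strand: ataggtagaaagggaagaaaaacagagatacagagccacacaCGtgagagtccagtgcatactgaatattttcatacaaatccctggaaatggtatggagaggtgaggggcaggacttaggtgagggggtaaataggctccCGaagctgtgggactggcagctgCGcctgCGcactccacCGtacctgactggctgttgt
Gyk, chrX:85777040-85777239, minus strand: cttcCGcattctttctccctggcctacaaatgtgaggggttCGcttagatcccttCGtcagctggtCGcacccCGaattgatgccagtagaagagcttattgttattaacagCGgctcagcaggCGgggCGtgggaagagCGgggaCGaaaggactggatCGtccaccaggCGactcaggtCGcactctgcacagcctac
Gpd1, chr15:99717315-99717514, plus strand: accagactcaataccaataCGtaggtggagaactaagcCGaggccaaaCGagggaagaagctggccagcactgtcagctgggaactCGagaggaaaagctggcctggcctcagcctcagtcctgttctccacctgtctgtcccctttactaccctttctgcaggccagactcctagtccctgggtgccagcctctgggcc
Gm3336, chr8:70718295-70718494, plus strand: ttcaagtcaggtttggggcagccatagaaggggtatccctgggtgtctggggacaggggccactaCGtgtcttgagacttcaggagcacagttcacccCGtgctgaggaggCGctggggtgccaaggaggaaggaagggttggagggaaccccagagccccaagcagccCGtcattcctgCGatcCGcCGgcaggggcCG
Pdia4, chr6:47813513-47813712, minus strand: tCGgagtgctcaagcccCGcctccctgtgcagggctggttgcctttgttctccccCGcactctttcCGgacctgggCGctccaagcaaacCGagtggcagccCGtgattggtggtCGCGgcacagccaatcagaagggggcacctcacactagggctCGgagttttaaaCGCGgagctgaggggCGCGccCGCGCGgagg
Chchd6, chr6:89595653-89595852, minus strand: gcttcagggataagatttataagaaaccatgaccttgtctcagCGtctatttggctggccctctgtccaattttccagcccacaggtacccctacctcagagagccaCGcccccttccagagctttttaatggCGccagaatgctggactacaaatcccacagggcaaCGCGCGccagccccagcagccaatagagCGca
The Gk2 stretch holds 5 CG sites and the Gyk stretch 13, although the latter lies farther from the start, at 420 to 221 bases before it against 215 to 16. The stretches of Ldhc and Csl hold 3 and 6 sites, and those of Gpd1, Gm3336, Pdia4 and Chchd6 hold 4, 8, 17 and 7. CG was the only motif searched, and 91.3% of all probes hold at least 1 in the 200 bases before the start, with a median of 12 sites in the sperm proteome genes and 8 in the others.

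The sperm proteome promoters were richer in CG sites than the rest, and these sites lay closer to the start of the gene. They held a median of 54 CG sites (quartiles 33 and 73, range 1 to 203), against 45 (quartiles 23 and 70) in the other 21711 promoters. Only 2.99% of them had 10 CG sites or fewer, against 9.13% of the others. In the last 500 bases of the probe, which cover 300 bases before and 200 bases after the start, the median was 32 sites against 22. That stretch held a median of 55.6% of all CG sites of a probe in the sperm proteome genes and 47.9% in the others. Set beside other promoters with as many CG sites, that is within 5% of the number, the share was still higher by a median of 2.41 percentage points, in 421 of the 769 genes and lower in 335.

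The read numbers of the sperm proteome promoters were close to those of other promoters with as many CG sites and slightly below them. The median of the authors' means over the sperm proteome genes was 4.7, 4.8, 2.8 and 4.4 normalized reads in the 4 groups. The other promoters had medians of 5.0, 5.3, 3.0 and 4.9. The level of a promoter is given below as log2 of the authors' mean plus 1, averaged over the 4 groups, and its excess is that level less the median level of others with as many CG sites. The median excess was -0.13 (quartiles -0.81 and 0.56), with 357 genes above and 412 below their CG-matched promoters. The excess was below -1 in 143 genes and above 1 in 107. Within the 4 groups the median excess was -0.16, -0.11, -0.13 and -0.08. These medians are descriptions over promoters and carry no test, since only the mean and SD of each group of 5 libraries were used.

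The difference was largest among promoters with 21 to 40 CG sites. The level was low in the CG-poorest promoters, highest in those with 21 to 40 sites and lower again with more sites, in the sperm proteome genes as in the others. With 1 to 10 sites the 23 sperm proteome promoters had a median level of 1.47, against 1.52 in the others. With 11 to 20 sites the 55 promoters stood at 3.10 against 2.85. With 21 to 40 sites the 169 promoters stood at 3.12 against 3.52, a difference of -0.40, and the median of the authors' means in C57BL/6J control was 10.1 against 14.4 normalized reads. With 41 to 60 sites the medians were 2.42 and 2.45, and in the 28 promoters with over 120 sites they were 1.19 and 1.44.

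**Figure D1:**
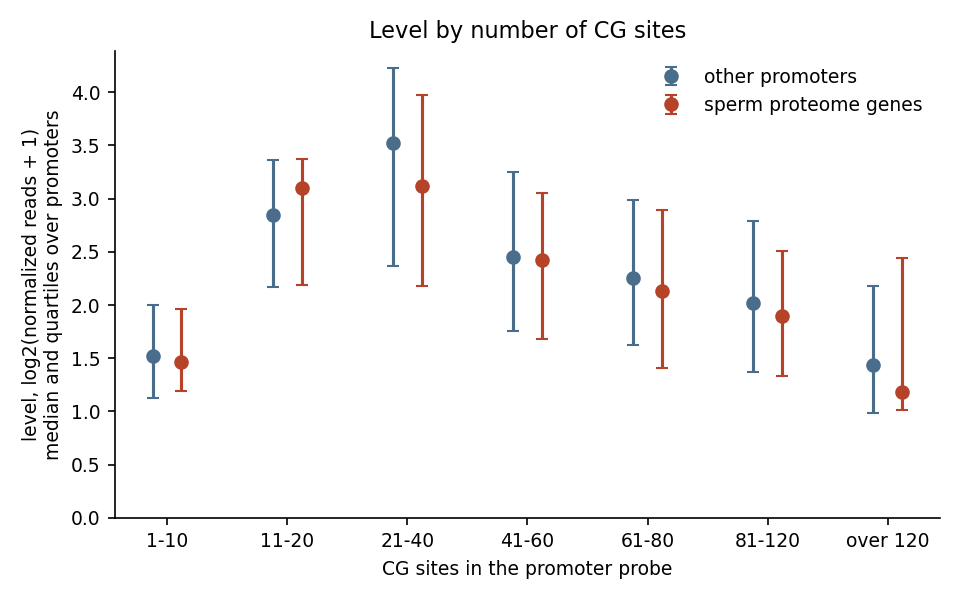
Level of promoters by number of CG sites in the probe, as log2(normalized reads + 1) averaged over the 4 groups. Points are medians and bars quartiles over promoters, for the sperm proteome genes and all other promoters. The medians part most at 21 to 40 sites, where they are 3.12 and 3.52.

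Within the class of 21 to 40 sites the level depended on where the sites lay. In the sperm proteome genes the median level was 3.67 with 0 to 5 of the sites in the last 500 bases (23 genes), 3.92 with 6 to 10 (39 genes) and 3.24 with 11 to 15 (54 genes). It was 2.00 with 16 to 20 such sites (26 genes) and 1.78 with 21 to 40 (27 genes). The other promoters declined likewise, from 3.97 and 4.03 through 3.40 and 2.43 to 1.85. The bin with 6 to 10 such sites held 23.1% of the sperm proteome genes of this class and 34.8% of the others. When sperm proteome genes were matched both on all CG sites of the probe and on those in its last 500 bases, the median excess was -0.06 in the 752 genes that could be matched, with 47.2% of them above.

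**Figure D2:**
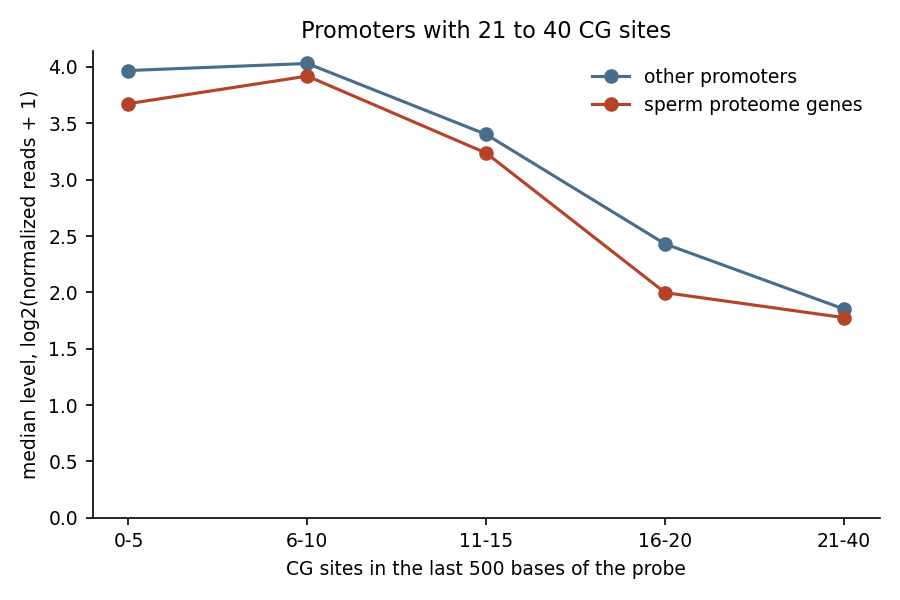
Median level, log2(normalized reads + 1), of promoters with 21 to 40 CG sites, by the number of those sites in the last 500 bases of the probe. Both lines decline from about 4 to under 2 as the sites gather at the start, and the sperm proteome genes lie below the others in each of the 5 bins.

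Sperm proteome genes with a high excess often had exons of a transcript inside the upstream part of the probe. Exons annotated by GENCODE covered over 300 bases of the probe, the 300 bases next to the start left out, in 139 of the 769 genes, or 18.1%. In those 139 genes the median excess was 0.31 and 80 lay above their CG-matched promoters. In the 491 genes without an upstream exon the median was -0.17 and 221 lay above. The other promoters showed the same order, with medians of 0.20 and -0.05. Among the 107 genes with an excess above 1, 43.0% had over 300 upstream exon bases, and among the 143 with an excess below -1, 11.9% had. In the other promoters these shares were 34.8% and 13.8%.

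The highest excess was that of Eef1d, a subunit of a translation elongation factor, at 2.94. Its probe (chr15:75909357-75911556, mm10) had 170 CG sites, overlapped the probe of Tigd5 and was covered by exons over all 1700 upstream bases. It stood at 31.7 ± 13.7, 10.1 ± 5.1, 15 ± 10.7 and 16.1 ± 5.7 normalized reads. Gm3336 (chr8:70716543-70718742, with exons of Iqcn in the probe) followed at 2.93, then H2-Ke6 (chr17:34027856-34030055, with exons of Slc39a7 and overlapping the probe of Rxrb) at 2.90 and Gpd1, the cytosolic glycerol-3-phosphate dehydrogenase, at 2.87. H2-Ke6 stood at 67.1 ± 25.7 in C57BL/6J control and 45.8 ± 17.8 in FVB/N control, above 99.0% of the others with as many sites.

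The lowest excess was -3.05, in Efhc2, an EF-hand protein of the axonemal microtubules encoded on chromosome X. With 30 CG sites, it had 0.2 ± 0.5, 0.5 ± 0.5, 1.4 ± 1.6 and 0.2 ± 0.4 normalized reads. Apool, a mitochondrial inner membrane protein also encoded on chromosome X, had an excess of -3.02. Cwf19l1 on chromosome 19 had -2.68, and Ppp1r11, an inhibitor of protein phosphatase 1, had -2.48. All 4 had 32 CG sites or fewer, of which 15 to 21 lay in the last 500 bases. A level cannot be negative, so the lowest possible excess depends on the median level of the CG-matched promoters. The low CG numbers of these 4 genes may therefore describe the measure. In the order named, they stood above 0.13%, 1.06%, 2.35% and 5.70% of the others with as many sites. Cct3, with 63 sites and an excess of -1.77, stood above 0.07%.

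The 22 sperm proteome genes on chromosome X were low as a group. Their median level was 1.21 and their median excess -1.22, and 20 of the 22 lay below their CG-matched promoters. The 747 other genes had a median level of 2.42 and a median excess of -0.07. The 731 remaining promoters of chromosome X had a median excess of -1.12, so the low level was shared by the chromosome and was not shown to be particular to sperm proteome genes. The CG-matched promoters came from all chromosomes. The part of the copy number of chromosome X in sperm was not tested, so these values are no measure of methylation alone.

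The genes were then ordered by the roles of their proteins, in 15 lists. Of the 769 genes, 277 were in at least 1 list and had a median excess of -0.12, and the 492 in no list had -0.13. The lists overlap in chromosome, CG number and, for some, probes, and their medians carry no test. Over all 22480 promoters the median excess was within 0.01 of 0 and 49.7% lay above.

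Among the proteins of energy supply, the promoters of respiration stood low and those of glycolysis stood near their CG-matched promoters. Of 47 respiratory chain and ATP synthase genes, 14 lay above their CG-matched promoters and 33 below, with a median excess of -0.37 and a median of 60 CG sites. They ran from Uqcrb, a subunit of complex III, at -2.38 to Ndufs3, a subunit of complex I, at 1.31. Of 23 genes of pyruvate dehydrogenase and the citrate cycle, 10 lay above, with a median of -0.38, from Suclg1 at -1.41 to Csl, a germ cell citrate synthase, at 1.71. Of 21 glycolytic genes 10 lay above, with a median of -0.12. Pgk1, the broadly expressed phosphoglycerate kinase on chromosome X, was lowest at -1.57 and Eno2, an enolase, was highest at 1.80. The 16 genes of fatty acid oxidation and ketone use had a median of 0.21, from Acot9 at -1.83 to Acot7 at 1.54, both acyl-CoA thioesterases. Acot9, like Pgk1, lies on chromosome X, where promoters were low in general.

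Proteasome promoters were mostly below their CG-matched promoters. Of 28 proteasome genes, 9 lay above and 19 below, with a median of -0.42, from Psma8, the germ cell form of a core subunit, at -1.51 to Psmc1, an ATPase of the regulatory particle, at 1.71. The 22 chaperonin and heat shock genes had the most CG sites of the 15 lists, with a median of 79, and a median excess of -0.22. Cct3, a chaperonin subunit, was lowest at -1.77, with 0.9 ± 0.5 and 1.3 ± 1.0 normalized reads in the C57BL/6J groups and 0.0 ± 0.0 in both FVB/N groups. Pdia3, a disulfide isomerase, was highest at 0.93. The 16 vesicle traffic and membrane fusion genes had the lowest median of the 15 lists, -0.81, with 6 above and 10 below, from Rab8b at -1.70 to Anxa2 at 1.16.

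The proteins that sperm use for motion and for the egg had fewer CG sites and stood at or above their CG-matched promoters. The 19 axoneme and dynein genes had a median of 40 CG sites and a median excess of 0.02, with Ccdc151, a docking factor of outer dynein arms, highest at 1.59 and Efhc2 lowest. The 5 outer dense fibre and fibrous sheath genes had a median of 7 CG sites and an excess of 0.01, from Spa17 at -1.14 to Odf1 at 0.71. The 7 tubulins had a median of 0.32, from Tuba1c at -1.62 to Tuba3b at 2.03. Of 19 acrosome and egg interaction genes, with a median of 23 CG sites, 13 lay above and 6 below, with a median of 0.23. Spaca3, a lysozyme-like protein of the acrosome, was highest at 0.78, with 32.2 ± 12 normalized reads in C57BL/6J control, and Adam5 was lowest at -1.60.

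Of 9 epididymal and seminal secreted proteins, 8 lay above their CG-matched promoters, with a median of 21 CG sites and a median excess of 0.34. Serpina1f, a serine protease inhibitor family member of the epididymis, was highest at 1.41, with 38.4 ± 10.5 in C57BL/6J control and 20.7 ± 7.2 in FVB/N control. Serpina1a was lowest at -0.22, but its probe lay 41331 bases from the RefSeq start of Serpina1a and held exons of Serpina1c only. The probe also overlapped those of Serpina1c and Serpina1d. Only 59.1% of its 50-base sequences occur once in the genome, so that its reads cannot be assigned to 1 of these copies. Of 8 antioxidant enzymes, 7 lay above, with a median of 0.41, from Gpx3, an extracellular glutathione peroxidase, at -1.0 to Prdx5, a peroxiredoxin, at 1.5. The 21 genes of cyclic AMP, kinase and calcium signalling had a median of -0.17, from Ppp1r11 to Ywhae at 1.09. The 18 ion channels, pumps and solute carriers had a median of -0.11, from Atp6v1e1 at -1.25 to Atp2b2, a plasma membrane calcium pump, at 0.76.

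Germ cell forms were set beside the broadly expressed genes they resemble in 19 pairs. The germ cell form had fewer CG sites in 15 of the 19 pairs, with medians of 31 sites in the germ cell forms and 61 in their counterparts, and the higher level in 15, with a median difference of 1.07. These levels were not matched on CG sites. Promoters outside the set had a median level of 3.52 with 21 to 40 sites and 2.26 with 61 to 80. Against promoters with as many CG sites, more of the germ cell forms lay below than above. The authors' mean was higher in all 4 groups in 12 pairs. In 9 pairs, at least 1 group had all 5 libraries of the germ cell form above all 5 of the counterpart, and the reverse was shown in no pair. The limits of a group were taken here as the mean ± 1.79 SD, the farthest that 1 of 5 values can lie. For rounding, 0.05 was added to the SD and the limits were widened by a further 0.05, so that the counts are lower limits. Both promoters of a pair were read in the same libraries, and the 19 pairs rest on 15 counterparts, of which Ldha, Tuba1a, Actb and Oxct1 each serve in 2 pairs.

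The pair of citrate synthases differed most. Csl (39 CG sites) stood at 26.4 ± 3.7, 15.9 ± 7.1, 25.9 ± 4.9 and 19.6 ± 2.5 normalized reads. Cs (59 sites) stood at 1.2 ± 0.9, 1.7 ± 1.7, 1.6 ± 1.8 and 4.2 ± 0.6. The libraries of the pair did not overlap in 3 of the 4 groups.

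Gk2, the germ cell glycerol kinase (27 sites), stood at 10.1 ± 3.0, 12.9 ± 3.7, 7.5 ± 5.0 and 10.4 ± 1.6, and Gyk on chromosome X (66 sites) at 1.0 ± 1.0, 0.7 ± 0.8, 0.2 ± 0.4 and 2.1 ± 1.3. Ldhc, the lactate dehydrogenase of sperm (31 sites), stood at 17.1 ± 6.3, 12.1 ± 4.3, 8.2 ± 4.2 and 12.9 ± 2.6, and Ldha (61 sites) at 2.3 ± 1.6, 2.4 ± 0.6, 1.1 ± 0.9 and 1.1 ± 0.4. Both pairs did not overlap in 3 of the 4 groups. Gyk, unlike Gk2, lies on chromosome X, and the part of the copy number of that chromosome in sperm was not tested. Slc25a31, the adenine nucleotide carrier of sperm, and Slc25a4 did not overlap in 2 groups, and Aldoart2, an intronless aldolase, and Aldoa in 1. Aldoart2 (41 sites) stood at 26.9 ± 4.7 in C57BL/6J control and at 17.3 ± 5.1 in FVB/N control. Csl, Gk2, Ldhc and Slc25a31 had excesses of 1.71, -0.31, 0.12 and 0.55, so that 3 of the 4 lay within 1 of the median for their CG number. Their counterparts Cs, Gyk, Ldha and Slc25a4 had excesses of -0.78, -1.43, -0.88 and -1.17, all below others with as many CG sites. In the other pairs the excesses were mixed. Psma8, Ppp3r2 and Cyct had -1.51, -1.37 and -1.21. Pgk2, Ldhal6b, Cox6b2 and Pdha2 had -0.78, -0.70, -0.66 and -0.65, and Oxct2a, Ppp3cc and Oxct2b had -0.33, -0.28 and -0.03. Actl7a, Tuba3a, Actrt2, Aldoart2 and Tuba3b had 0.19, 0.32, 0.65, 1.42 and 2.03. The counterparts Actb and Tuba1a had 0.96 and 0.51, and Aldoa and Cycs had -0.58 and -0.21.

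The order was not general. Pdha2 (12 CG sites) had a level of 1.70 and Pdha1, on chromosome X with 61 sites, had 1.97. Ppp3r2 and Ppp3r1 stood at 2.26 and 3.12, Psma8 and Psma7 at 2.13 and 2.47, and Tuba3a and Tuba1a at 2.74 and 2.89. Pgk2 (9 sites) and Pgk1 were both low, at 1.05 and 0.72. Tuba3b, with 51 CG sites like Tuba3a, stood at 4.45, with 34 ± 10.1 in C57BL/6J control against 8.4 ± 3.7 for Tuba3a. The probe of Tuba3b overlapped that of Ifltd1. In Oxct2a and Oxct2b, 59.6% and 57.9% of the 50-base sequences occur once in the genome, so that their values, 7.8 ± 3.0 and 7.6 ± 3.3 in C57BL/6J control, are uncertain as those of separate genes.

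**Figure D3:**
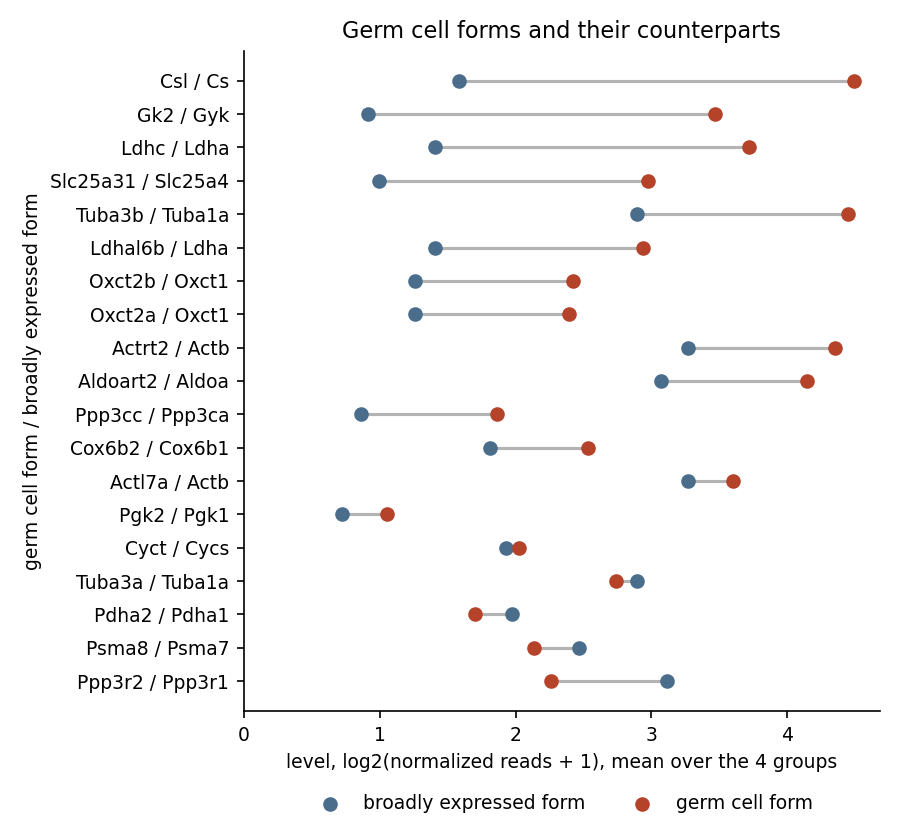
Level, log2(normalized reads + 1) averaged over the 4 groups, of 19 germ cell forms and the broadly expressed genes they resemble. In 15 pairs the germ cell form lies higher, by up to 2.91 in Csl and Cs, and in the lowest 4 pairs it lies lower. The levels are not matched on CG sites.

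Expression values in isolated testis cell fractions, taken by the authors from another dataset and of unstated scale, were available for 724 of the 769. The value was highest in spermatids for 233 genes, in spermatocytes for 188, in Sertoli cells for 165 and in spermatogonia for 138. These are 32.2%, 26.0%, 22.8% and 19.1% of the 724, and in the other promoters the shares were 34.5%, 21.2%, 21.8% and 22.5%. The spermatid-highest genes had a median of 33 CG sites and a median level of 2.83, and the other 3 classes had 61 to 63.5 sites and levels of 1.93 to 2.23. Against promoters with as many CG sites the medians were 0.04 in the spermatid-highest genes, -0.23 in the spermatocyte-highest, -0.36 in the Sertoli-highest and -0.02 in the spermatogonia-highest. Promoters outside the sperm proteome had medians of 0.12, -0.10, -0.11 and -0.13 in the same order. In the pairs with values for both genes, the germ cell form was higher in spermatids except in Tuba3b, Ppp3cc and Actl7a. Tuba3b had 4.25 in spermatids and 3.70 in Sertoli cells, against 7.57 and 13.3 in Tuba1a. Ppp3cc had 8.14 in spermatids against 9.34 in Ppp3ca. Gyk, labelled as broadly expressed, had 3.96 in spermatids and 4.28 in Sertoli cells.

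The comparison of DEHP with control asks whether exposure before birth altered methylation at these promoters. Few were shown to lie apart beyond the spread between libraries, and the sperm proteome genes had changes close to those of the rest. The change is given as the log2 ratio of the authors' mean plus 1 in DEHP over that in control, so that a negative value is a lower read number after DEHP. The median over the sperm proteome genes was -0.11 in C57BL/6J, against -0.10 in all promoters. In FVB/N it was 0.33, against 0.35 in all promoters. The sign of these medians depended on the scale: with the group means scaled to equal sums over all promoters they became 0.32 for C57BL/6J and 0.27 for FVB/N (all promoters 0.33 and 0.29), and with means scaled to equal medians -0.17 and -0.20 (all promoters -0.16 and -0.18). Less the change of promoters with as many CG sites, the medians were 0.06 (quartiles -0.41 and 0.48) in C57BL/6J and 0.03 (quartiles -0.36 and 0.42) in FVB/N, with 407 and 397 of the 769 genes above 0. In C57BL/6J the ratio was above 1 in 25 of the genes, or 3.25%, and below -1 in 77, where 5.09% and 10.7% of all promoters were. In FVB/N 95 genes, or 12.4%, were above 1 and 18, or 2.34%, below -1, where 14.4% and 2.68% of all promoters were.

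Within the 769 genes the change followed the level in the controls of the other strain. The C57BL/6J change had a median of 0.28 in the 107 genes under 1 normalized read in FVB/N control, of -0.20 in the 195 genes at 3 to under 7, and of -1.48 in the 11 genes at 31 or more. The other promoters in these bins had 0.34, -0.13 and -1.41. The FVB/N change, set against C57BL/6J control, had medians of 0.34 in the 55 lowest genes, 0.57 in the 177 genes at 3 to under 7 and -0.61 in the 34 genes at 31 or more. The others had 0.35, 0.60 and -0.48, so that in both strains the promoters highest in controls had the lowest ratios. Controls of both strains were submitted together, and the part of the submission in this pattern was not tested.

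The lists were described in the same way. Less the change of CG-matched promoters, the 47 respiratory chain and ATP synthase genes had a C57BL/6J median of 0.21, with 29 above 0, and an FVB/N median of 0.17, with 28 above 0. In the same order of strains the proteasome genes had 0.25 and 0.30, with 18 and 20 of 28 above 0, and the vesicle traffic genes 0.30 and 0.17, with 11 of 16 in each strain. The tubulins had -0.47 and -0.14, with 1 and 2 of 7 above 0. The acrosome and egg interaction genes had -0.25 and -0.07, with 8 of 19 above 0 in each strain. The chaperonin and heat shock genes had 0.05 in C57BL/6J and -0.27 in FVB/N, where 7 of 22 lay above 0. The epididymal and seminal proteins had -0.24 and 0.20, with 1 and 5 of 9 above 0, and the outer dense fibre and fibrous sheath genes 0.33 and -0.24, with 4 and 1 of 5. The signalling genes had 0.21 and -0.07, with 14 and 9 of 21. In the other 6 lists both medians lay within 0.2 of 0. Over all promoters both medians were within 0.01 of 0, and 11234 and 11211 of the 22480 lay above.

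In C57BL/6J the libraries of DEHP and control males were shown not to overlap in 12 genes, all lower after DEHP, and in 0 genes higher after DEHP. The 12 are 1.56% of the 769 genes, where 1.42% of all promoters were called in that direction and 0.249% in the other. The share is thus near the background. The log2 ratios of the 12 ran from -2.25 to -1.13, their control means from 8.7 to 83.1 normalized reads, and all 12 lay above promoters with as many CG sites. The call uses the control mean and was made in no sperm proteome gene under 7 normalized reads in FVB/N control, so that their high level describes the call. In FVB/N the ratio of each of the 12 was negative too, from -1.42 to -0.30.

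Gm3336 had the largest change, with 81.6 ± 17.2 in C57BL/6J control and 16.4 ± 5.3 in C57BL/6J DEHP, a log2 ratio of -2.25. In FVB/N it stood at 54.9 ± 8.1 and 20.5 ± 4.9, a ratio of -1.38, and with the means as deposited it was the only gene of the 769 whose libraries did not overlap in both strains. With equal sums it was again the only such gene, and with equal medians there were 5, which were Gm3336, 1700019O17Rik, Bdh1, Gpd1 and Ndufs3, all lower after DEHP. The product of Gm3336 is not described by its name, and its probe holds exons of Iqcn, 70 CG sites and 16 variants between the strains. Gpd1 went from 83.1 ± 23.7 to 19.1 ± 3.7 in C57BL/6J (-2.06). In FVB/N it stood at 52.6 ± 15.3 and 22.5 ± 6.3, which may overlap.

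1700019O17Rik (chr1:86424329-86426528) stood at 50.4 ± 16.5 in C57BL/6J control and 10.3 ± 4.4 in C57BL/6J DEHP (-2.19). Its probe holds exons named Nmur1 and Tex44 and none under the deposited symbol, and the gene start used for it is that of RefSeq. Pdia4, a disulfide isomerase of the endoplasmic reticulum, stood at 8.7 ± 2.8 and 1.3 ± 1.0 (-2.08), and at 8.6 ± 4.3 and 2.6 ± 1.6 in FVB/N. These were the 4 largest changes among the 12.

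The other 8 had different roles, and no list had more than 1 gene among the 12. Ndufs3, of complex I, went from 26.1 ± 7.2 to 6.9 ± 2.6 in C57BL/6J, and stood at 13.3 ± 2.6 and 5.6 ± 3.1 in FVB/N. Prdx5, the peroxiredoxin, went from 16.1 ± 2.0 to 4.8 ± 2.5, and Ccdc151, the dynein docking factor, from 22.4 ± 5.1 to 7.2 ± 1.8. Psmc1, of the proteasome, went from 25.5 ± 3.0 to 10.6 ± 2.5. Trf, which encodes transferrin, went from 42 ± 10.9 to 13.7 ± 3.8, and Arsa, a lysosomal sulfatase, from 32.8 ± 6.8 to 12.3 ± 1.2. Actc1, cardiac actin, went from 44.4 ± 8.5 to 17 ± 3.0, and stood at 20 ± 3.5 and 16 ± 5.1 in FVB/N, a ratio of -0.30. Trappc6b, a subunit of a vesicle tethering complex, went from 18.2 ± 2.7 to 7.8 ± 2.6.

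In FVB/N the libraries did not overlap in 7 genes, 4 higher and 3 lower after DEHP. They are 0.520% and 0.390% of the 769, where 0.774% and 0.859% of all promoters were called. Chchd6, a protein of the mitochondrial cristae, stood at 0.4 ± 0.6 in FVB/N control and 4.4 ± 1.3 in FVB/N DEHP, a log2 ratio of 1.95. Nipsnap3a stood at 1.4 ± 1.0 and 6.8 ± 1.6 (1.70), 1700026L06Rik at 3.8 ± 1.9 and 14.2 ± 3.4 (1.66), and Uqcrq, a subunit of complex III, at 1.8 ± 0.6 and 4.9 ± 0.4 (1.08). In C57BL/6J the same genes had ratios of 0.69, 0.76, -0.46 and 0.00, none shown to be separated. The probes of 1700026L06Rik and Uqcrq overlapped those of Ak8 and Gdf9, so their values may belong to either promoter. That of 1700026L06Rik holds exons named Ak8 and Spaca9 and none under the deposited symbol. The gene start used for it is that of RefSeq.

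The genes lower in FVB/N were Tagln2, an actin-binding transgelin, at 32.9 ± 7.8 and 9.6 ± 2.6 (-1.68), Gm128 at 40.8 ± 10.7 and 14.2 ± 2.5 (-1.46), and Gm3336. Tagln2 stood at 44 ± 10.9 and 15.1 ± 7.2 in C57BL/6J, and Gm128 at 46.8 ± 15.8 and 14.1 ± 8.8, both with wider limits that may overlap. Over both strains 14 genes were lower, and 7 of them, or 50%, had over 300 exon bases in the upstream part of the probe. Among the 459 other promoters called lower in either strain 44.0% had, so that the share is near that of called promoters in general.

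**Figure D4:**
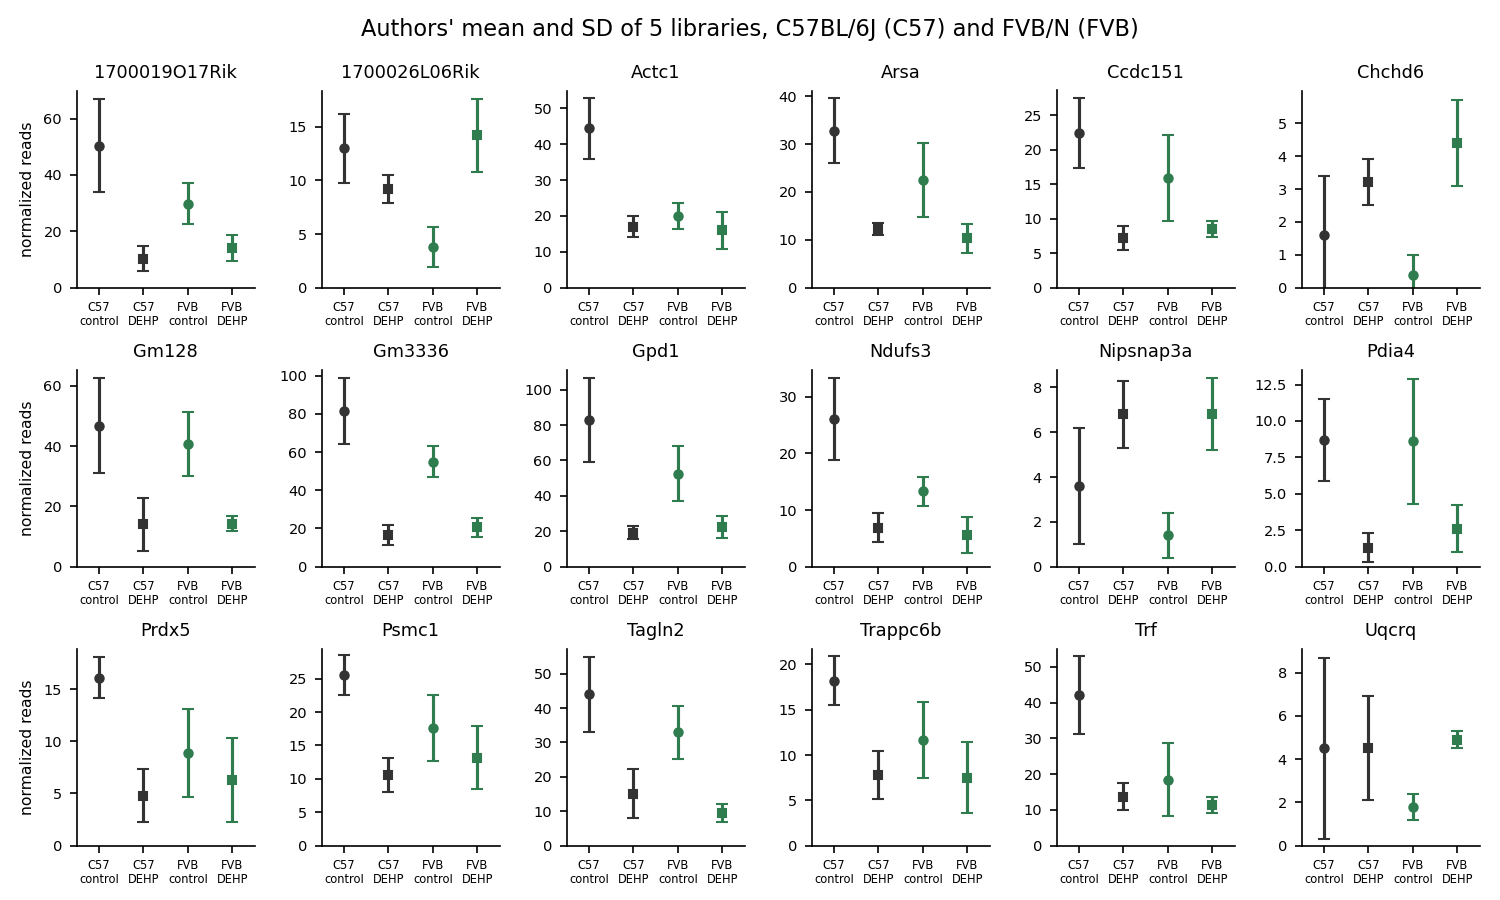
Authors' mean and SD of normalized reads over 5 libraries for the 18 sperm proteome promoters whose DEHP and control libraries did not overlap in C57BL/6J, FVB/N or both, with SD bars cut at 0. In 14 genes the read number is lower after DEHP, and in Chchd6, Nipsnap3a, 1700026L06Rik and Uqcrq it is higher after DEHP in FVB/N.

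These calls depended on the scale of the groups. Summed over all promoters, the means came to 226268 normalized reads in C57BL/6J control and to between 141092 and 153283 in the other groups. When the means were scaled to equal sums, 6 genes were higher and 2 lower in C57BL/6J, where 1.02% and 0.129% of all promoters were called, and FVB/N kept 4 higher and 3 lower (all promoters 0.627% and 1.04%). When they were scaled to equal medians, 0 were higher and 16 lower in C57BL/6J (all promoters 0.222% and 1.88%), and 0 higher and 20 lower in FVB/N (all promoters 0.125% and 3.25%). Gm3336 and Gpd1 in C57BL/6J, and Gm3336, Gm128 and Tagln2 in FVB/N, were lower with the means as deposited, with equal sums and with equal medians. The 4 genes higher in FVB/N were so as deposited and with equal sums, but not with equal medians.

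The strains were compared in their response because the study asked whether DEHP acts alike in both. No sperm proteome gene, and no promoter of the 22480, was separated in opposite directions in the strains. This measure is strict, since all 5 libraries must lie apart in each strain, and smaller opposite changes are not excluded. With an edgeR test of the strain difference, the paper reports opposite changes at the promoters of Piwil2, Fkbp1a and Smim8. The log2 ratio in C57BL/6J minus the ratio in FVB/N had a median of -0.49 in the sperm proteome genes and -0.50 in the others, and of 0.02 after the CG-matched promoters were subtracted. The difference of the responses was not tested gene by gene.

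**Figure D5:**
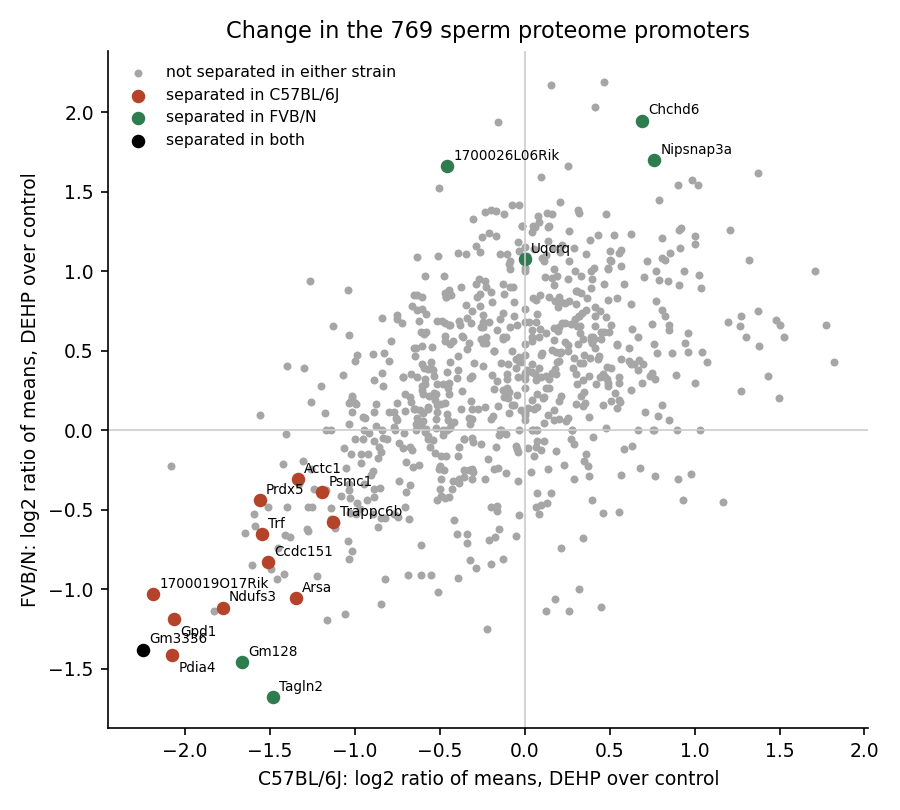
Log2 ratio of means, DEHP over control, in C57BL/6J (x axis) and FVB/N (y axis) for the 769 sperm proteome promoters, with a pseudocount of 1. Coloured points are the 18 genes whose libraries did not overlap in a strain. Those lower in DEHP lie at the lower left, below 0 in both strains.

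Within the control submission, 8 sperm proteome genes had all C57BL/6J libraries above all FVB/N libraries and 0 the reverse. They are 1.04% of the 769, where 1.06% and 0.0267% of all promoters were called. Read numbers were higher in C57BL/6J control in general, with a median log2 ratio of C57BL/6J over FVB/N of 0.52 in these genes and 0.54 in all promoters. With equal sums and with equal medians the median in these genes was within 0.05 of 0. The ratio was above 1 in 122 genes, or 15.9%, and below -1 in 0, where 16.4% and 0.556% of all promoters were. Gm136, of undescribed product, stood at 14.8 ± 4.7 in C57BL/6J control and 1.1 ± 1.1 in FVB/N control, a ratio of 2.91. Its probe (chr4:34756060-34758259) holds 29 CG sites and 17 variants between the strains. Serpina1b stood at 11.2 ± 3.7 and 1.6 ± 1.4 (2.23), with 41 variants and only 57% of its 50-base sequences unique. The other 6 were Atp5a1, G6pd2, Samm50, Sqrdl, Dnpep and Actc1, with ratios of 1.79 to 1.11. Reads were aligned to a C57BL/6J genome, and the part of the variants in these values was not tested.

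After DEHP, Gm136 was again higher in C57BL/6J, at 9.4 ± 1.9 against 1.8 ± 1.8 in FVB/N (1.89). It was the only separated gene of the 769, where 0.307% of all promoters were higher and 0.0311% lower in C57BL/6J. In controls Gm136 was the only separated gene of the 769 with equal sums (all promoters 0.307% higher and 0.111% lower in C57BL/6J) and with equal medians (0.289% and 0.129%). After DEHP it was again higher with equal sums (all promoters 0.294%) and with equal medians (0.258%), and 1 gene was lower in C57BL/6J under each (0.0356% and 0.0445%). That gene was Alad, an enzyme of heme synthesis. The median log2 ratio between the strains after DEHP was 0.04, in the sperm proteome genes as in all promoters, with 24 genes above 1 and 2 below -1, where 2.69% and 0.298% of all promoters were.

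The SD was largest in relation to the mean in FVB/N control, the group with the lowest read numbers. In sperm proteome genes with a mean of at least 1 normalized read, the median ratio of SD to mean was 0.743 in FVB/N control, 0.474 in C57BL/6J control, 0.432 in C57BL/6J DEHP and 0.408 in FVB/N DEHP. In the other promoters it was 0.735, 0.462, 0.421 and 0.389. With means of at least 5 it was 0.486, 0.363, 0.359 and 0.316 in the sperm proteome genes, and the part of low read numbers in the ratio was not tested.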

How the data were processed

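Sperm DNA of 20 males, 5 in each of 4 groups taken from the labels, was measured by MBD-sequencing. Per the submitters' processing notes and the methods, read-pairs were aligned onto mm10 with Bowtie 0.12.7, pairs with several positions were discarded, and counts per probe were normalized with edgeR. DEHP and control libraries also differed in read length and average depth per the methods. The signal used here is the mean and SD of normalized reads of each group as the authors deposited them, with 1 decimal; 0 further columns of single samples were left out. Expression is a score the authors added from an independent dataset, of unstated scale. Numbers of CG sites, variants and flags are the authors' annotations. The columns that hold the authors' own fold changes, p-values and FDR were not used.

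Values of single libraries were not used, so the depth behind each value is unknown, and the planned fallback of no test applied. Computed were log2 ratios (pseudocount 1), the excess over promoters outside the set with CG sites within 5% (at least 1 site, at least 20 promoters), and separation. Groups were separated where the means ± 1.79 SD, with 0.05 added to the SD and a further 0.05 to the limits, did not overlap. The bound holds by algebra for any 5 values, so that a run on simulated data checked the code and not the calls made here. Exons, CG positions and unique 50-base sequences came from GRCm38.p6 with GENCODE vM21 and RefSeq; the CG number in the reference equalled the deposited one in 92.5% of the 769 promoters. Tools were Python 3.11.15, numpy 2.4.6, pandas 2.3.3, pysam 0.24.0 and numba 0.67.0.

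Named are, per strain and direction, the 4 separated genes with the largest ratio; the 4 highest and 4 lowest in excess; the highest and lowest of each list; germ cell pairs; and 2 per direction for the strains in controls. The remaining separated genes are also named. The members and lists were chosen with earlier results of these data known. The bins by upstream exons and by the other strain's control, and the pairing of stretches shown, were chosen after the values were seen. Alternatives were other CG windows and pools, scaling to equal sums or medians, a pseudocount of 0.1, a minimum mean of 1 and no rounding step.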

Additional observations from a re-analysis of the deposited data

How the results depend on the processing

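The level excess of -0.13 and the median changes less those of CG-matched promoters stayed within 0.1 on the log2 scale under all alternatives run, including CG windows of 10% and of the same number, CG sites counted in the reference, other pools, both scalings, a pseudocount of 0.1 and a minimum mean of 1, and, chosen after seeing the data, matching on CG sites near the start and, for the level, leaving out chromosome X. Values this close to 0 changed sign: the FVB/N change of 0.03 was -0.02 when matched on CG sites near the start, and the strain difference of 0.02 was -0.01 with either scaling. Counts of separated genes moved. In C57BL/6J, 6 were higher and 2 lower with equal sums, against 0 and 12, and 1 was higher without the rounding step. In FVB/N, 0 were higher and 20 lower with equal medians, against 4 and 3, and 7 were higher without the rounding step. In controls, 1 gene was higher in C57BL/6J with equal sums and 1 with equal medians, against 8. After DEHP, 2 were higher in C57BL/6J without the rounding step, against 1, and 1 was lower with equal sums, 1 with equal medians and 1 without the rounding step, against 0. The ratio of SD to mean in FVB/N control was 0.486 with a minimum mean of 5, against 0.743. The cause of these shifts was not tested. No log2 ratio of a gene separated between DEHP and control changed sign. Of 76 such values 14 lost separation, 10 in C57BL/6J with equal sums and 4 in FVB/N with equal medians. The pseudocount does not enter the separation and leaving out the rounding step only narrows its limits, so neither could remove a call. Only the values under the 2 scalings could lose separation. Leaving out single libraries could not be run on group summaries. No paired analysis was possible because the columns used carry no replicate numbers.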

Other observations

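The proteome column holds 7 combinations of the codes [1], [2] and [3], whose meaning is not given in the sources used here. The 548 genes with [2] alone had a median excess of -0.14 and a median of 57 CG sites, the 91 with [3] alone had -0.17 and 50 sites, and the 31 with [1] alone had 0.01 and 46 sites. The 11 genes with all 3 codes had 0.32 and 44 sites. The 56 promoters with both the proteome entry and the spermatogenesis flag, which are not among the 769, had 40 CG sites, a median level of 2.96 and a median excess of 0.16. Variants between the strains lay in the probes of 45.4% of the 769 genes and of 46.1% of the other promoters.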
